A study of Drosophila melanogaster with 9 samples.

Results

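F6-only sites were places in Drosophila melanogaster S2 cells where nascent strands had been called in the fraction of long strands and in neither the short nor the middle-sized fraction. A site was a fraction 6 region narrower than 4000 bp that shared no base with any region of the fraction 4 or fraction 5 list. It had to lie on autosomal arm 2L (start below 21 Mb), 2R, 3L (start below 22.5 Mb) or 3R. The rule left 783 sites among the 3691 fraction 6 regions that met the same width and arm limits (21.2%), and among 5814 fraction 6 regions and 32247 regions in all 5 deposited lists. The other 2908 fraction 6 regions, which shared bases with fraction 4, fraction 5 or both, served for comparison. The sites were thus chosen by the measured positions of regions in the 3 fraction lists, so their number, width and distance to the other fractions are given as descriptions.

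A replication origin fires when a primase lays down a short RNA primer and the leading strand grows outward from it. Nascent strands are therefore short when replication has just begun and lengthen with time, while the RNA at their 5′ end protects them from lambda exonuclease, an enzyme that degrades DNA from an unprotected 5′ end. Sequencing of the protected strands (SNS-seq) piles reads up around start sites, and separating the strands by size before sequencing asks whether short and long strands mark the same places.

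Fractions 4 (short), 5 (middle-sized) and 6 (long) came from single gradient fractions of S2-DRSC cells, an embryonic line with haemocyte-like features, with 2 libraries for each fraction. The pooled experiments combined the gradient fractions of 0.5 to 2.5 kb, with 2 biological replicates merged into 1 list each for S2-DRSC cells and for ML-DmBG3-c2 (Bg3) cells, a neural line derived from larvae. The labels name no treatment or mutation. Each of the 5 lists was single, with no value per library, so no difference below was set against replicate spread and no test was possible. Intervals are exact 95% intervals that cover counting error only, and they treat neighbouring regions as independent.

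The lists held 4505 regions in fraction 4, 6448 in fraction 5, 7268 in the S2 pooled list and 8212 in the Bg3 pooled list. The fraction lists gave positions alone. The pooled lists also gave an efficiency in reads per kb of the origin, with 42.1 M reads inside S2 origins and 31.6 M, on a different scale, inside Bg3 origins. Positions are in build dm3 as deposited. A start of 0 occurs in each list although widths count both end bases, so starts, and distances of a few bp, may be off by 1 bp. A region missing from a list fell short of that list's calling rule, whose settings the sources used here do not give, and any signal below it was not measured.

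Distances of the sites to the other fractions ranged from 1 to 75008 bp for the nearer one, with no gap between near and distant sites. The median distance between nearest ends was 9893 bp to a fraction 4 region (interval 8825 to 11256, quartiles 2523.5 and 23119.5) and 4925 bp to a fraction 5 region (4044 to 5785, quartiles 590.5 and 12350). The nearest of the regions was from fraction 5 for 520 sites and from fraction 4 for 259, with 4 ties. The fraction 5 list was the longer one, which alone shortens distances to it. To the nearer of the fractions the median was 3813 bp, and 247 sites (31.5%, 28.3 to 34.9) had a fraction 4 or 5 region within 1 kb. Within 200 bp the number was 112, and 185 sites lay between 1000 and 5000 bp. With regions of each fraction merged within 1 kb first, the share within 1 kb was 10.1% and the median distance to fraction 5 was 8163 bp. At the other end, 83 sites lay more than 20000 bp from both fractions, and 8 lay more than 50000 bp away.

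**Figure D1:**
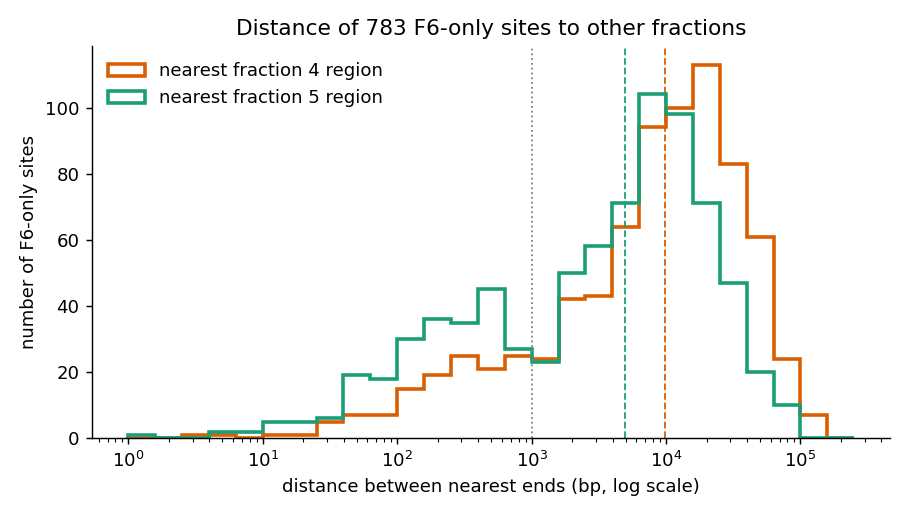
Number of F6-only sites (y axis) by distance in bp to the nearest fraction 4 and fraction 5 region (x axis, log scale); dashed lines are the medians of 9893 and 4925 bp, and the dotted line marks 1000 bp. Both distributions peak at distant sites and extend without a gap to sites below 1000 bp.

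The neighbours of the sites within 1 kb overlapped fraction 6 regions at a rate near that of all fraction 5 regions and above that of all fraction 4 regions. Of the 247 nearest fraction 4 or 5 regions within 1 kb, 182 (73.7%, 67.7 to 79.1) themselves overlapped a fraction 6 region. Over all regions on these arms the same share was 65.7% for fraction 4 and 68.3% for fraction 5. The interval included the value for fraction 5 and lay above that for fraction 4. The S2 pooled list held 173 of the 247 neighbours (70.0%, 63.9 to 75.7), against 65.9% of all fraction 4 and 64.5% of all fraction 5 regions on these arms. The Bg3 list held 85 of them (34.4%, 28.5 to 40.7), against 50.04% and 43.0%, and here the interval lay below both. In these 182 cases long strands had been called both at a place shared with shorter strands and at a separate place beside it.

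The closest cases were separated by a few bases. A 785 bp site on 3R at 1534719 to 1535503 adjoined a fraction 5 region with a distance of 1 bp and was in neither pooled list. A 403 bp site on 2R at 1056354 to 1056756 lay 3 bp from a fraction 4 region and 13 bp from a fraction 5 region, and a 1618 bp Bg3 origin spanned it together with a region of each. A 370 bp site on 2L at 14245978 to 14246347 lay 5 bp from fraction 5 and was in both pooled lists. Just outside the rule, a region on 2L (12819477 to 12820369) shared only 4 bp with fraction 5. Another on 2L (11437101 to 11437585) shared 5 bp, and one on 3L (10921114 to 10921459) shared 12 bp. These values show how little separates a site inside the rule from one outside it at the near end of the range.

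The 5 most distant sites had no such ambiguity. The farthest, 327 bp on 2L at 695072 to 695398, lay 75008 bp from fraction 4 and 75044 bp from fraction 5. It was in neither pooled list, and its nearest S2 origin was 3108 bp away. A second site in the same empty stretch, on 2L at 698857 to 699168, lay 71238 and 71274 bp from fractions 4 and 5 and sat inside an S2 origin of 968 bp with 1851 reads per kb. A site on 3L at 14640894 to 14641274 lay 73063 bp from the nearest other fraction and 398 bp from an S2 origin. The site on 2L at 6240030 to 6240349 lay 71534 bp from fraction 4 and 80687 bp from fraction 5, inside an S2 origin with 1485 reads per kb. The last, on 3R at 19455777 to 19456090, lay 69769 bp from fraction 4. It was held by a 551 bp S2 origin (1610 reads per kb) and by a 551 bp Bg3 origin (2338 reads per kb) whose ends were 1 bp apart. Thus 3 of the 5 most isolated sites were listed again in pooled S2 strands, and 1 of them in another cell line too. Of all 83 sites beyond 20000 bp, 34.9% were in the S2 list and 16.9% in the Bg3 list. All 3691 fraction 6 regions had 59.2% and 37.4%, and 5 sites are too few to be told apart from these shares.

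F6-only sites were narrow. Their median width was 391 bp (interval 376 to 404, quartiles 307.5 and 529.5), against 595 bp (579 to 611) for the other fraction 6 regions. Regions found with fraction 4 alone had a similar median of 396.5 bp, those with fraction 5 alone 501 bp, and those with both 689 bp. Wider regions overlap other lists more readily, so this order is tied to the rule and is no finding. The widest site, on 2R at 2171466 to 2174250, measured 2785 bp, followed by 2762 bp on 3L at 643113 to 645874 and 2194 bp on 2L at 5985809 to 5988002. The limit of 4000 bp therefore removed none: 0 of the 120 fraction 6 regions of that width or more were free of fractions 4 and 5, which allows a share of up to 2.5% by 3 counts of the total and up to 3.03% by the exact interval. The narrowest of those 120, at 4060 bp (2R), 4326 bp (2L) and 4369 bp (2L), overlapped both fractions. The narrowest sites were 185 bp on 3R at 791809, 193 bp on 2L at 15683773 and 200 bp on 2R at 164200.

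**Figure D2:**
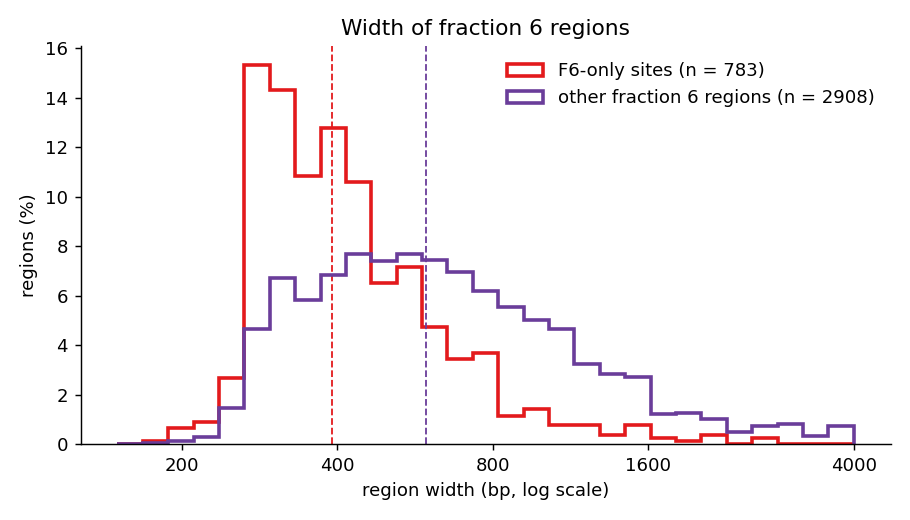
Share of regions (y axis, %) by width in bp (x axis, log scale) for the 783 F6-only sites and the 2908 other fraction 6 regions; dashed lines are the medians, 391 and 595 bp. The quartiles of the sites lie at 307.5 and 529.5 bp.

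About 1 site in 4 shared bases with an origin of the pooled S2 fractions. The S2 pooled list, which the rule did not use, held 195 of the 783 sites (24.9%, interval 21.9 to 28.1), against 1990 of the 2908 other fraction 6 regions (68.4%, 66.7 to 70.1) and 59.2% of all 3691. The Bg3 pooled list held 140 sites (17.9%, 15.3 to 20.7), against 1240 of the others (42.6%, 40.8 to 44.5) and 37.4% of all. The intervals of sites and others were apart for both lists. Counting origins within 500 bp as well gave 43.8% of sites, against 73.8% of the others, in the S2 list, and 26.8% against 48.1% in the Bg3 list. Both lists held 52 sites (6.64%), where the share of all fraction 6 regions was 28.2%. Neither list held 500 sites (63.9%, 60.4 to 67.2), against 668 of the other regions (22.97%) and 31.6% of all. In the Bg3 list but not the S2 list were 88 sites (11.2%, 9.11 to 13.7), against 8.60% (7.60 to 9.68) of the other regions and 9.16% of all. The intervals of sites and others overlapped. Among only the regions missing from the S2 list, the Bg3 shares were 15.0% (12.2 to 18.1) for sites and 27.2% (24.4 to 30.2) for others.

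The share found in pooled S2 strands differed with the number of fractions and which fraction was shared. This order may likewise be tied to the rule, since the pool combined gradient fractions of the same cell line, and this was not tested. It was 24.9% for F6-only sites, 34.2% (25.6 to 43.7) for the 114 regions shared with fraction 4 alone, 59.1% (56.2 to 62.1) for the 1089 shared with fraction 5 alone and 76.7% (74.6 to 78.6) for the 1705 shared with both. The intervals of the first 2 classes overlapped. In the Bg3 list the same classes had 17.9%, 29.8% (21.6 to 39.1), 31.4% (28.7 to 34.3) and 50.7% (48.3 to 53.1). The intervals of the 2 middle classes overlapped there.

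**Figure D3:**
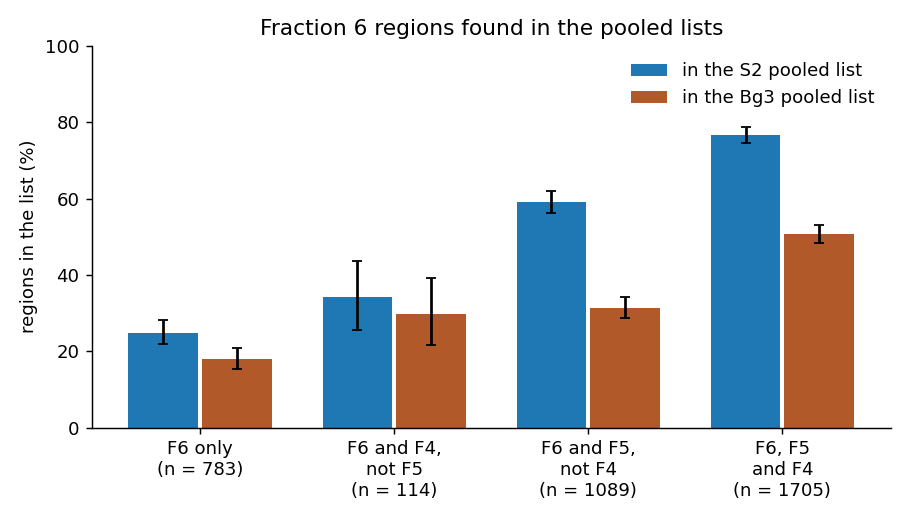
Share of fraction 6 regions (y axis, %) found in the S2 and Bg3 pooled lists, for regions in fraction 6 only and for those shared with fraction 4, fraction 5 or both (x axis); error bars are exact 95% binomial intervals. F6-only sites have the lowest bar in each list, 24.9% in S2 and 17.9% in Bg3.

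The gap was also present between regions of like width. In 4 width classes split at the quartiles of all eligible fraction 6 regions (373, 537 and 829 bp), 26.3%, 23.8%, 22.4% and 27.1% of the sites were in the S2 list, from narrowest to widest. The other fraction 6 regions of the same classes had 56.7%, 62.2%, 70.5% and 79.1%. In the Bg3 list the sites had 19.05%, 17.6%, 15.7% and 16.7%, and the others 38.9%, 36.6%, 41.7% and 50.6%. The intervals of sites and others were apart in each class and list. Among the sites, the share changed little with width, whereas among the other regions the widest class had the highest share. The widest class held only 48 sites, so its S2 interval ran from 15.3 to 41.8%.

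Sites marked by 1 fraction alone were also listed at different rates. Under the same rule, 914 regions were in fraction 5 only and 549 in fraction 4 only. The S2 pooled list held 24.9% of F6-only sites, against 45.4% (42.1 to 48.7) of F5-only and 33.2% (29.2 to 37.3) of F4-only sites. The Bg3 list held 17.9% of F6-only sites, against 32.1% (29.0 to 35.2) of F5-only and 38.3% (34.2 to 42.5) of F4-only sites. F6-only sites thus had the lowest share in both lists, with intervals apart from the other classes. Their median width of 391 bp was close to the 380 bp of F5-only sites and below the 494 bp of F4-only sites.

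Presence in one pooled list went with presence in the other. Of the 195 sites in the S2 list, 52 (26.7%, 20.6 to 33.5) were also in Bg3, against 88 of the 588 sites not in the S2 list (15.0%, 12.2 to 18.1). The same shares were 49.7% and 27.2% for the other fraction 6 regions. For regions in the S2 list, the intervals of sites and other regions (20.6 to 33.5 and 47.5 to 52.0) were apart. The median width was 377 bp (351 to 409) for sites in the S2 list and 394.5 bp (377 to 407) for sites not in it.

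Of the sites missing from the S2 list, 1 in 3 lay within 1 kb of one of its origins. Of the 588 sites not in the S2 list, 196 (33.3%, 29.5 to 37.3) had an S2 origin within 1 kb, against 211 of 918 for the other fraction 6 regions (22.98%, 20.3 to 25.8). Their median distance to the nearest S2 origin was 3593 bp (2788 to 4220), against 4672 bp (4074 to 5349), with overlapping intervals. For the Bg3 list, 17.4% (14.6 to 20.6) of the 643 missing sites and 16.8% (15.1 to 18.7) of the other missing regions had an origin within 1 kb, with overlapping intervals. A core of 265 sites (33.8%, 30.5 to 37.3) lay more than 1 kb from every region of all 4 other lists.

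The share in the S2 list had no simple order with distance from the shorter fractions. It was 28.6% for sites up to 200 bp away, 18.5% from there to 1000 bp, 22.2% from there to 5000 bp, 25.4% from there to 20000 bp and 34.9% (24.8 to 46.2) beyond 20000 bp. Whether the S2 origin of a site also held a fraction 4 or 5 region went with that distance, as the distance classes largely impose. Within 200 bp, 26 of the 31 S2 origins that held a site also held a fraction 4 or 5 region. Between 200 and 1000 bp, this was so for 9 of 25, and beyond 1000 bp for none. Beyond 1000 bp an origin must span the whole gap to hold both. The S2 origins with a site had a median width of only 632 bp. Counting only S2 origins free of fractions 4 and 5, the shares were 4.46% (1.47 to 10.1), 11.9%, 22.2%, 25.4% and 34.9% in order of distance. Close to another fraction this share is limited by construction, since an origin that extends past the site meets the neighbouring region. In the Bg3 list the shares were 13.4%, 13.3%, 21.1%, 20.1% and 16.9%, with overlapping intervals.

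**Figure D4:**
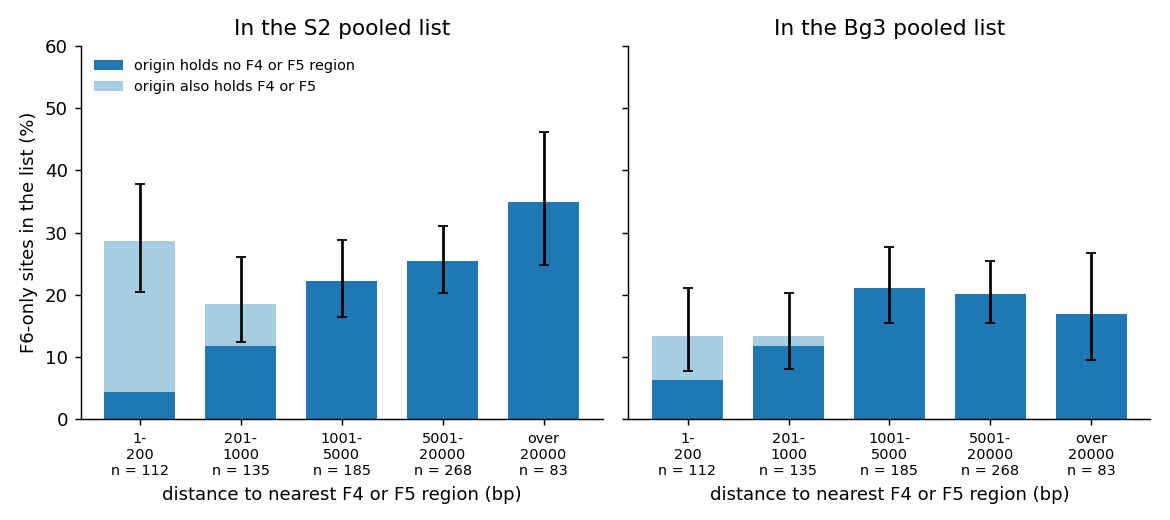
Share of F6-only sites (y axis, %) in the S2 (left) and Bg3 (right) pooled lists by distance in bp to the nearest fraction 4 or 5 region (x axis, 5 classes); dark bars are sites whose origin holds no fraction 4 or 5 region, light bars those whose origin does, and error bars are exact 95% intervals of the total. Light bars appear only within 1000 bp.

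S2 origins that held F6-only sites were of middling efficiency, and few were among the strongest. The 192 such origins had a median of 1569 reads per kb (interval 1491 to 1631, quartiles 1373 and 1757), against 1821 (1790 to 1857) for the 1864 origins that held another fraction 6 region. The 2464 origins that held no region of any fraction had 1423 (1413 to 1434), and all 5444 S2 origins on these arms had 1543. Among origins that held no fraction 4 or 5 region this gap was not seen, at 1498 against 1494 reads per kb, but only 9 origins with another fraction 6 region were of that kind. Efficiency is a value of the whole pooled origin, not of the site inside it. A strong origin may be called in fractions 4 and 5 too, and the rule left out regions shared with them. The lower efficiency may thus be tied to the rule, which was not tested. In the strongest of 5 equal groups, above 2024 reads per kb, were 20 of the 192 (10.4%, 6.48 to 15.6), against 36.1% (33.9 to 38.3) of the origins with another fraction 6 region and 20% of all. Counted the other way, 1.84% of the strongest 5th of S2 origins held an F6-only site, against 2.94%, 3.95%, 3.68% and 5.23% of the 4 weaker groups in rising order. The share with other fraction 6 regions rose steadily with efficiency, from 14.9% of the weakest group to 61.8% of the strongest. Median origin width rose as well, from 424 bp in the weakest group to 1013 bp in the strongest. Wider origins overlap other regions more readily, and efficiency and width were not separated.

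Origins that held a site were more efficient where they also held a region from shorter strands. The 157 S2 origins that held an F6-only site and no fraction 4 or 5 region had 1498 reads per kb (1449 to 1587), a highest value of 2542 and a median width of 563 bp. The 35 that also held a fraction 4 or 5 region had 1855 reads per kb (1707 to 2025) and a median width of 864 bp. Only 8 of the 157 (5.10%) were in the strongest 5th, against 12 of the 35 (34.3%). The 157 still had a higher median than the 2464 origins in no fraction, with intervals apart. Their lowest read number was 298 and their median 869, against 691 for origins in no fraction.

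All 5 sites in the strongest S2 origins lay within 244 bp of another fraction. Of all 783 sites, 14.3% lay within 200 bp and 31.5% within 1 kb of one. These 5 origins were 1064 to 5508 bp wide, against a median of 632 bp for the 192 S2 origins with a site. Wider origins reach neighbouring regions more readily. The strongest origin, 3674 reads per kb and 12525 reads, on 2L at 19347456 to 19350864, ranked 248 of 5444 and held 1 region each of fractions 4 and 5. Its F6-only site ran from 19349122 to 19351302, 132 bp from fraction 5. Next came an origin on 2L starting at 8614297 with 3219 reads per kb and one on 3R starting at 15531201 with 3077. They were followed by a 1064 bp origin on 3L (start 3589799, 2844 reads per kb) and a 5508 bp origin on 3R (start 13401017, 2727 reads per kb). Each of the 5 held at least 1 fraction 4 or 5 region and 2 or 3 fraction 6 regions. None of their sites was in the Bg3 list, although the site on 3L lay 26 bp from a Bg3 origin. Of all 195 sites in the S2 list 26.7% were also in the Bg3 list, and 5 sites are too few to be told apart from that share.

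Bg3 origins that held F6-only sites had efficiencies near those of origins with other fraction 6 regions and above those of origins in no fraction. The 141 had a median of 2297 reads per kb (2214 to 2389), against 2351 (2318 to 2375) for the 1231 Bg3 origins with another fraction 6 region, with overlapping intervals. The 3294 Bg3 origins in no S2 fraction had 2186 (2170 to 2203), an interval apart from that of the 141. In the strongest 5th were 33 of the 141 (23.4%, 16.7 to 31.3), against 26.9% of those with another fraction 6 region and 20% of all 5527. Bg3 and S2 efficiencies are on different scales and were not set against each other. Of the 141, 11 also held a fraction 4 or 5 region, where 35 of 192 did in S2. The Bg3 origins were narrower, at a median of 399 against 632 bp, and wider origins overlap other regions more readily. Fractions 4 and 5 also came from S2 cells, so these numbers are no comparison of the cell lines.

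The strongest Bg3 origin with a site reached 5970 reads per kb, on 2R at 163843 to 164517, rank 80 of 5527. Its site, 200 bp at 164200 to 164399, was also among the 3 narrowest, lay 933 bp from fraction 5 and was 3904 bp from the nearest S2 origin. The next was on 3L at 538284 to 539181 (4062 reads per kb). Its 1655 bp site, 537426 to 539080, was also in an S2 origin with 1879 reads per kb. An origin on 2R starting at 2173672 (3998 reads per kb) held the widest site of all. It was followed by a 281 bp origin on 2L (start 5947822, 3906 reads per kb) and a 1400 bp origin on 3L (start 1657578, 3761 reads per kb). The sites in these last 3 origins were not in the S2 list but lay 174, 179 and 11 bp from an S2 origin.

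**Figure D5:**
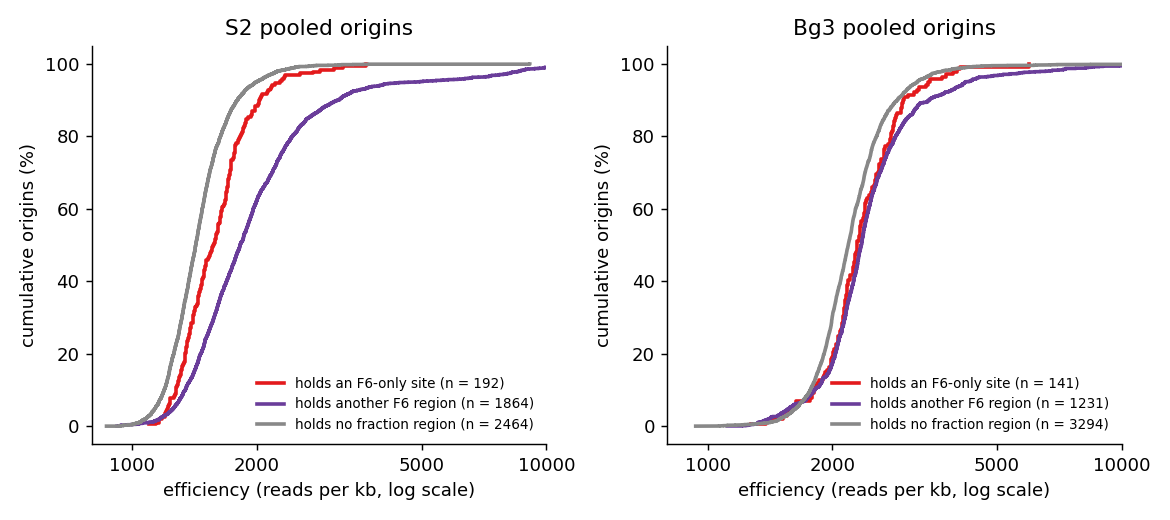
Cumulative share of pooled origins (y axis, %) by efficiency in reads per kb (x axis, log scale, cut at 10000) for S2 (left) and Bg3 (right) origins that hold an F6-only site, hold another fraction 6 region, or hold no region of any fraction. In S2 the line for F6-only sites lies between the other lines (medians 1569, 1821 and 1423), and in Bg3 it runs close to the line for other fraction 6 regions (2297 and 2351).

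Sites lay mostly, but often not wholly, inside the origins that held them. In the S2 list a median of 98.4% of a site's bases (91.2 to 100) were inside the origin, and 88 of 195 (45.1%) were wholly inside it, against 99.1% and 45.7% for the other fraction 6 regions. The S2 origin was 1.55 times as wide as the site (1.42 to 1.69), against 1.13 times (1.11 to 1.16) for the others. The sites were narrower, at a median of 391 against 595 bp, which alone raises this ratio. S2 origins with a site were not wider than those with another fraction 6 region, at medians of 632 and 736.5 bp. Centres lay 140.5 bp apart (100.5 to 190), against 103.5 bp (96 to 111.5). In the Bg3 list a median of 86.6% of bases (76.1 to 92.8) were inside the origin and 48 of 140 sites (34.3%) were wholly inside it, against 81.1% and 27.4% for the others. Centres there lay 76.8 bp apart (57 to 96) for the sites, against 118.8 bp (108.5 to 132.5) for the others. The widths of Bg3 origin and site were nearly equal (ratio 1.02, 0.881 to 1.28), against a ratio of 0.897 (0.861 to 0.946) for the others, with overlapping intervals.

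Each arm had a like share of sites. There were 185 on 2L (20.6% of its eligible fraction 6 regions), 201 on 2R (20.5%), 162 on 3L (22.3%) and 235 on 3R (21.7%), with overlapping intervals. The density was 8.81, 9.51, 7.20 and 8.42 sites per Mb. The share in the S2 list was 23.2%, 21.9%, 26.5% and 27.7% on 2L, 2R, 3L and 3R, and was below that of the other fraction 6 regions (67.1 to 71.2%) on each arm. The share in the Bg3 list was 11.9% (7.60 to 17.4) on 2L, 20.9% on 2R, 25.3% (18.8 to 32.7) on 3L and 14.9% on 3R. The other fraction 6 regions had 41.7%, 45.2%, 49.2% and 36.7% on these arms. Sites on 2L lay nearest to fraction 5, at a median of 2322 bp, against 5559, 7006 and 5143 bp on 2R, 3L and 3R.

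Most sites stood singly. The median distance to the next F6-only site was 31459 bp, and 133 sites (17.0%, 14.4 to 19.8) had another within 5 kb. Among the other fraction 6 regions the median to the next of their kind was 7063.5 bp, and 42.4% had another within 5 kb. The sites were fewer, which alone lengthens the distance between them. Chaining sites within 5 kb gave 714 groups, of which 650 held 1 site, 59 held 2 and 5 held 3. Relative to any fraction 6 region, however, sites were spaced like the rest: 33.1% had one within 1 kb, against 32.8% of the other fraction 6 regions. In windows of 1 Mb the median was 8 sites, against 30.5 other fraction 6 regions, and the numbers had a Spearman correlation of 0.51 over 94 windows, which share the arms and the library. The fullest 1 Mb window, 2L from 8000001 to 9000000, held 21 sites and 54 other fraction 6 regions. Sites made up 28% of its fraction 6 regions, against 20.6% on the whole arm. The window was chosen for its number of sites, which alone raises that share. Of its sites 7 were in the S2 list and none in the Bg3 list, against 36 and 12 of the 54 other regions. The window held 92 S2 and 42 Bg3 origins. Of all 185 sites on 2L 11.9% were in the Bg3 list, and 21 sites are too few to be told apart from that share. The fullest 100 kb window, 3R from 19100001 to 19200000, held 5 sites beside 8 other fraction 6 regions. Of the 5 sites, 2 were in the S2 list and 0 in the Bg3 list, against 7 and 6 of the 8 other regions. This window was also chosen for its number of sites, and its few values are a description.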

How the data were processed

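Nascent strands of S2 and Bg3 cells were represented by 5 deposited region lists covering 9 samples. Per the submitters' processing notes, Bowtie2 2.2.0, SAMtools 0.1.19 and MACS 1.4.1 were used on build dm3. Settings, thresholds and the way libraries were combined were not stated in the labels. The efficiency deposited with each pooled origin is a signal, in reads per kb. Its product with width was a whole number (within 0.001) for 100% of S2 and 0.28% of Bg3 origins, so the Bg3 values are a scaled or averaged number.

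Overlap meant at least 1 shared bp. Distance was counted between nearest ends, 1 bp for adjoining regions. An origin held a site when they shared a base, and was counted once. Shares have exact Clopper-Pearson intervals and medians have intervals from binomial order statistics (95%). Code (Python 3.11.15, numpy 2.4.6, pandas 2.3.3, scipy 1.17.1, matplotlib 3.10.9) was tested on simulated lists. No significance test was run, since no list had replicate values and regions are not replicates. Sites named in the text were the 5 in the strongest S2 and Bg3 origins, the 5 most distant, the 3 widest and narrowest, the fullest window and those at the limits of the rule. The fullest 1 Mb window was added after its values were seen. Members, lists and rules were chosen with earlier results of these data known. Alternatives covered overlap rules, width limits, merging, arms and the efficiency summary. Sequence and gene annotation in dm3 were not used here.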

Additional observations from a re-analysis of the deposited data

How the results depend on the processing

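Of 121 recomputed values, 104 stayed within the interval of the reported value (for the number of sites, within 1.5 times it) and 17 did not. The share of F6-only sites was below that of the other fraction 6 regions in all 38 alternatives for the S2 and Bg3 lists. The median S2 efficiency was below that of origins with other fraction 6 regions in 13 of 14. The exception was the setting with only origins that hold no fraction 4 or 5 region, at 1498 against 1494 reads per kb. The median Bg3 efficiency was below that of origins with other fraction 6 regions in 14 of 14. The intervals of the reported Bg3 medians overlapped. Leaving out sites within 500 bp of another fraction, as its construction implies, moved the median distance to 12538 bp (fraction 4) and 8192 bp (fraction 5) and the share within 1 kb to 9.15%. Leaving out only sites at least 50% covered by fractions 4 and 5 gave 29.8% in the S2 list, 3261 bp to fraction 5, 40.8% within 1 kb and a width of 409 bp. Sites of at least 300 bp had a median width of 428 bp. Merging regions within 1 kb gave 20.8% in the Bg3 list, 12562 and 8163 bp to fractions 4 and 5, and 10.1% within 1 kb. Without 2L, 27.4% were within 1 kb. In the Bg3 list, asking for 50% of the site gave 14.2% and for its centre 15.1%. Counting origins within 500 bp gave 43.8% in the S2 list and 26.8% in the Bg3 list. No paired analysis was possible because no list has a column per replicate, and for the same reason no replicate could be left out. Depth per library was unknown for the fractions, so absence from fractions 4 and 5 and weak signal there cannot be told apart. The sequence of the sites was not analysed here.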

Other observations

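The same rule was applied outside the analysed arms. On the X, 143 of 556 fraction 6 regions under 4000 bp (25.7%, interval 22.1 to 29.6) were in fraction 6 only. Their median distance was 26769 bp to fraction 4 and 11922 bp to fraction 5. The S2 list held 51 of them (35.7%, 27.8 to 44.1), against 65.4% of the other fraction 6 regions on the X, and the Bg3 list 23 (16.1%, 10.5 to 23.1), against 42.9%. On the heterochromatic scaffolds, which represent repeat-rich sequence near centromeres and the Y, 92 of 941 regions (9.78%, 7.95 to 11.9) were in fraction 6 only. There the S2 list held 18 (19.6%, 12.0 to 29.1), against 64.1% of the 849 other fraction 6 regions, and the Bg3 list held 40 (43.5%, 33.2 to 54.2), against 70.9%. The Bg3 share was thus the higher one for sites and for other regions alike. The excluded end of 3L, from 22.5 Mb, had 19 such sites, 6 in the S2 list and 12 in the Bg3 list. These were 31.6% and 63.2%, against 63.3% and 67.3% of the 147 other fraction 6 regions there. The excluded end of 2L, from 21 Mb, had 26, with 7 and 9 (26.9% and 34.6%), against 61.1% and 46.3% of its other regions. The start of 2R below 2000000, which the rule kept, had 16, with 5 and 9. The shares were 31.25% and 56.25%, against 62.7% and 70% of its other regions. Chromosome 4 had 7 among 54 regions, 4 of them in the S2 list and 1 in the Bg3 list. Its 47 other regions had 51.1% and 48.9%. The sites near centromeres were few, and their intervals were wide.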
